A study of Homo sapiens with 28 samples.

Results

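The alpha-arrestins are the subject here: TXNIP, ARRDC1, ARRDC2, ARRDC3 and ARRDC4, which are 5 of the 19662 genes listed for prostate cancer cells in which oxygen and the transcription factor ONECUT2 were varied. The 5 genes were chosen by their measured responses to hypoxia and to the ONECUT2 change in these same libraries, so their group differences are given as a description, without a test. Expression was measured by RNA-Seq in 16 libraries, as RPKM (reads per kilobase of transcript, scaled to the mapped reads of a library), a scale per length on which levels of different genes can be set side by side. PC3 cells, a prostate cancer line from a bone metastasis, were transfected with a control siRNA (siCtrl) or with an siRNA against ONECUT2 (siOC2), and kept in normoxia or in a chamber at 0.2% oxygen. LNCaP cells, a prostate cancer line from a lymph node metastasis, carried an empty vector or a Flag-tagged ONECUT2 vector (Flag-OC2) at the same oxygen levels. Each of the 4 groups per line had 2 libraries. In the siOC2 groups the first library came from siRNA 1 and the second from siRNA 2, so the spread there includes the difference between the siRNAs. Standard errors (SE) and p-values rest on a spread shared by the 4 groups of a line. In PC3 the difference between the siRNAs therefore enters all of them, also for siCtrl cells. The sources do not state whether the LNCaP derivatives were clones or pools, how long the cells stayed in hypoxia, or whether libraries came from separate cultures. The p-values below therefore measure only the spread between these libraries. In bulk RNA, fewer cells that express a gene and less RNA per cell cannot be told apart.

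Alpha-arrestins share the arrestin fold with the beta-arrestins of receptor signalling. TXNIP binds and inhibits thioredoxin and takes part in the removal of glucose transporters from the cell surface. Its transcription follows intracellular glucose through MondoA and ChREBP, partner proteins of MLX that bind paired E-box-like letters in promoters, the carbohydrate response element, and ARRDC4 is regulated in the same way. ARRDC1 to ARRDC4 carry PPxY motifs that bind NEDD4-family ubiquitin ligases. ARRDC1 recruits these ligases and TSG101 to vesicles budding from the plasma membrane, and ARRDC3 acts on integrin beta 4.

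In GRCh37, TXNIP spans chr1:145438490-145442635, ARRDC1 chr9:140500137-140509812, ARRDC2 chr19:18111941-18124911, ARRDC3 chr5:90664448-90679134 and ARRDC4 chr15:98503933-98517063. RefSeq promoter windows in the GRCh38.p14 build, each of 250 bases before a start site and 50 after it, matched all 5 genes with 8 windows. The windows were searched on both strands for CACGTG (E-box), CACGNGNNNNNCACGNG (a pair of E-box-like parts, as in carbohydrate response elements), ACGTG (the core bound by hypoxia-inducible factors, HIF) and ATTGAT (a core bound by ONECUT factors). An ACGTG match lies inside every CACGTG match. The upstream window of TXNIP and the window of ARRDC4 are shown, since these genes are the known glucose-responsive members of the family and their windows hold E-box-like letters. The capitals mark the paired parts with their spacer in TXNIP and the E-box in ARRDC4.

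TXNIP, chr1:145996530-145996829, minus strand: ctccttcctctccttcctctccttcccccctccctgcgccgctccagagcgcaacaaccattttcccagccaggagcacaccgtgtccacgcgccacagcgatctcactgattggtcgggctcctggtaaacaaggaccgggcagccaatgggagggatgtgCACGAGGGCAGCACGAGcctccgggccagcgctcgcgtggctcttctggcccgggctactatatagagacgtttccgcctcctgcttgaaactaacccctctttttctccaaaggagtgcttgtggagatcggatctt

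ARRDC4, chr15:97960453-97960752, plus strand: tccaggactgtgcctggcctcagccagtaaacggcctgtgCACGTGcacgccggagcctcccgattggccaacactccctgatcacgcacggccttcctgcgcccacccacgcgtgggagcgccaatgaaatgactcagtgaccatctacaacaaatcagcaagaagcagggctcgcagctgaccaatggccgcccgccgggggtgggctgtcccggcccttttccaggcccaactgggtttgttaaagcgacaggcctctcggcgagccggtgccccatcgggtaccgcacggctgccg

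The pair in TXNIP lay at -88 to -72 from the start site and was found in 20 of all 35116 windows (0.0570%). The E-box of ARRDC4 lay at -210 to -205, and this motif was found in 2548 windows (7.26%). The HIF core was found in 7518 windows (21.4%), among them the ARRDC4 window, within its E-box, and the second TXNIP window at -162 to -158. No window of ARRDC1, ARRDC2 or ARRDC3 held any of these letters, and ATTGAT, present in 6.26% of all windows, was in none of the 8 windows. A match describes letters and does not show binding.

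The line labels were checked with a marker. KLK3, the gene of prostate-specific antigen, was listed at 0 in all PC3 libraries and ranged from 1842 to 3997 RPKM in LNCaP. ONECUT2 itself was at 1.77 and 1.16 RPKM in siCtrl normoxia libraries against 0.276 and 0.204 in siOC2, and at 0.648 and 0.550 against 0.125 and 0.214 in hypoxia. In LNCaP, ONECUT2 ranged from 2.89 to 11.5 RPKM in the empty vector libraries and has no value in the Flag-OC2 libraries. The overexpression could therefore not be checked in these RNA values. The authors blotted LNCaP cells for ONECUT2 protein with and without the vector for it, which is not assessed here. Relative depth, read from the steps between low RPKM values, ranged from 0.348 to 1.15 in PC3 and from 0.548 to 1 in LNCaP. The shallowest library was siOC2 hypoxia with siRNA 1 (0.348), close to siCtrl hypoxia 2 (0.382) and siCtrl normoxia 1 (0.418). The differences of the family that rest on the siRNA 1 hypoxia library are given also without it. Its depth and its siRNA cannot be told apart. For hypoxia in siOC2 cells, a value without it sets siRNA 2 against both siRNAs and so also holds the difference between them.

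All 5 genes passed the limit of 1 RPKM in 2 libraries in both lines, and their levels in every library are plotted first. In control cells in normoxia, LNCaP had 17.9 times the mean TXNIP RPKM of PC3, 9.62 times that of ARRDC1, 7.67 times that of ARRDC4 and 2.36 times that of ARRDC3. ARRDC2 was the exception, at 0.819 times. The lines were in separate tables and were not tested against each other. In normoxic PC3 control cells the order of the means was TXNIP, ARRDC3, ARRDC1, ARRDC2 and ARRDC4. The neighbours TXNIP and ARRDC3 did not overlap (lowest TXNIP 13.1, highest ARRDC3 11.8), nor did ARRDC1 and ARRDC2, though only narrowly (4.65 against 4.59). In normoxic LNCaP control cells the order was TXNIP, ARRDC1, ARRDC3, ARRDC4 and ARRDC2, with no overlap between neighbours. ARRDC5, the remaining alpha-arrestin gene, did not exceed 0.0432 RPKM in any library.

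**Figure D1:**
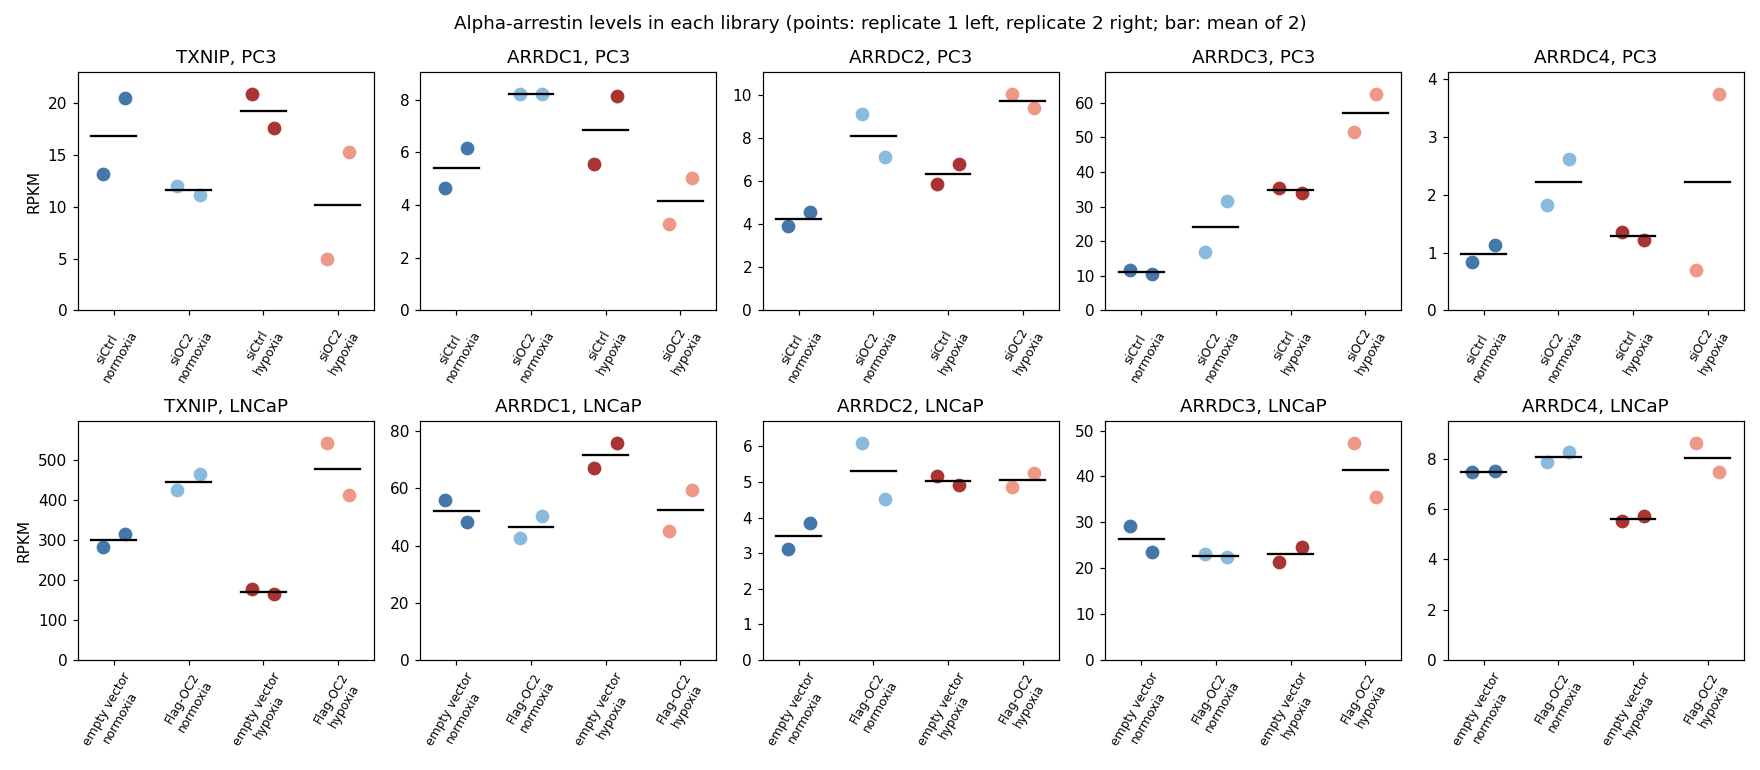
RPKM of each alpha-arrestin (columns) in the PC3 and LNCaP libraries (rows), with 2 points per group, replicate 1 on the left, and a bar at their mean. TXNIP in LNCaP is lowest in the empty vector hypoxia libraries (177 and 164) and ARRDC3 in PC3 is highest in the siOC2 hypoxia libraries (51.5 and 62.7).

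TXNIP, the thioredoxin inhibitor, was the most abundant of the family in LNCaP and showed its widest separation there. Its level was 283 and 316 RPKM in empty vector cells in normoxia and 177 and 164 in hypoxia. With Flag-OC2 it was 426 and 464 in normoxia and 543 and 413 in hypoxia. The 4 Flag-OC2 libraries were thus all above the 4 empty vector libraries, and the hypoxic empty vector libraries were the lowest. On the log2(RPKM + 0.1) scale used for all differences here, hypoxia over normoxia was -0.82 (SE 0.14, n = 2 per group) in empty vector cells and 0.09 (SE 0.14) in Flag-OC2 cells, where the groups overlapped and the value was -0.05 under upper-quartile scaling. The difference between Flag-OC2 and empty vector was 0.57 (SE 0.14) in normoxia and 1.48 (SE 0.14) in hypoxia, a fold of 2.78. The latter was 1.28 to 1.67 over all alternative settings.

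In PC3 cells TXNIP was at 13.1 and 20.5 RPKM in siCtrl and 12.0 and 11.1 in siOC2 in normoxia. In hypoxia it was at 20.9 and 17.6 in siCtrl, against 4.94 with siRNA 1 and 15.3 with siRNA 2. In both oxygen conditions the siCtrl libraries lay above the siOC2 libraries, by 0.50 (SE 0.49) in normoxia and 1.13 (SE 0.49) in hypoxia on the log2 scale. The hypoxic difference rested in part on the siRNA 1 library, and was 0.33 without it and 1.93 without the siRNA 2 library. Hypoxia over normoxia overlapped in both arms, at 0.23 (SE 0.49) in siCtrl and -0.40 (SE 0.49) in siOC2, and without the siRNA 1 hypoxia library the latter was 0.40. The normoxic difference was 0.18 without the second siCtrl library. TXNIP means were thus higher in siCtrl than in siOC2 PC3 cells and in Flag-OC2 than in empty vector LNCaP cells, at both oxygen levels, though in PC3 by amounts that single libraries decided, while its lower level in hypoxic control cells was seen in LNCaP and not in PC3. The contrast between the lines was not tested.

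**Figure D2:**
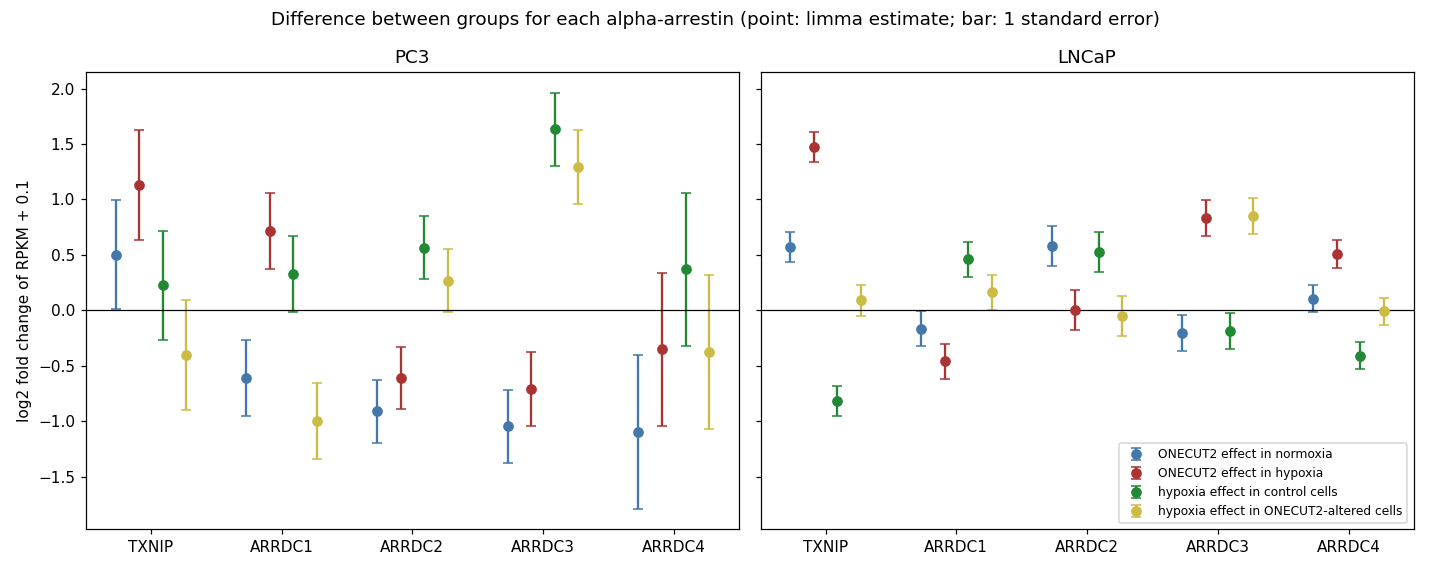
Log2 fold change of each alpha-arrestin in 4 contrasts, PC3 on the left and LNCaP on the right, as the limma estimate with a bar of 1 standard error, with the ONECUT2 effect as siCtrl over siOC2 or Flag-OC2 over empty vector. The ONECUT2 effects of TXNIP are above 0 in both lines (0.50 and 1.13, 0.57 and 1.48), and those of ARRDC3 are below 0 in PC3 (-1.05 and -0.71) and above 0 in LNCaP only in hypoxia (0.83).

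ARRDC4, the closest glucose-responsive relative of TXNIP, followed TXNIP in LNCaP in direction but with a smaller range. In empty vector cells it was at 7.46 and 7.50 RPKM in normoxia and at 5.52 and 5.70 in hypoxia. In Flag-OC2 cells it was at 7.86 and 8.27 in normoxia and at 8.62 and 7.46 in hypoxia. As for TXNIP, the hypoxic empty vector libraries were the lowest and stood apart from all 6 others. Hypoxia over normoxia was -0.41 (SE 0.12) in empty vector and -0.01 (SE 0.12) in Flag-OC2 cells, and Flag-OC2 over empty vector was 0.11 (SE 0.12; 0.20 under upper-quartile scaling) in normoxia and 0.51 (SE 0.12) in hypoxia.

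In PC3 cells ARRDC4 was near the detection limit used, at 0.829 and 1.12 RPKM in siCtrl and 1.81 and 2.61 in siOC2 in normoxia. In hypoxia it was at 1.35 and 1.21 in siCtrl, 0.701 with siRNA 1 and 3.74 with siRNA 2. The siOC2 libraries were higher in normoxia, with a siCtrl over siOC2 difference of -1.10 (SE 0.69), which is the direction opposite to that of TXNIP. In hypoxia the groups overlapped because the siRNAs gave the lowest and the highest of the 8 values, and the difference was 0.78 without siRNA 2 and -1.48 without siRNA 1. Hypoxia over normoxia in siCtrl cells was 0.37 (SE 0.69, which includes the spread between the siRNAs).

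ARRDC3, an adaptor for integrin beta 4, had the widest range of the family in PC3, where the highest library was 5.98 times the lowest. In siCtrl cells it was at 11.8 and 10.5 RPKM in normoxia and 35.5 and 34.0 in hypoxia. In siOC2 cells it was at 16.8 and 31.7 in normoxia and 51.5 and 62.7 in hypoxia. The 4 groups did not overlap, and they stood in the order siCtrl normoxia, siOC2 normoxia, siCtrl hypoxia and siOC2 hypoxia. Hypoxia over normoxia was 1.63 (SE 0.33, a fold of 3.10) in siCtrl and 1.29 (SE 0.33, a fold of 2.45) in siOC2 cells. Without the siRNA 1 hypoxia library the latter was 1.44. The siCtrl over siOC2 difference was -1.05 (SE 0.33) in normoxia and -0.71 (SE 0.33) in hypoxia, the latter -0.85 without the siRNA 1 library. The normoxic value varied with the siRNA, from -0.59 without siRNA 2 to -1.50 without siRNA 1, and was -0.92 under upper-quartile scaling.

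In LNCaP cells ARRDC3 was at 29.1 and 23.6 RPKM in empty vector and 23.2 and 22.3 in Flag-OC2 in normoxia. In hypoxia it was at 21.4 and 24.6 in empty vector and 47.3 and 35.6 in Flag-OC2. The hypoxic Flag-OC2 libraries were above the other 6, which lay close together. Hypoxia over normoxia was -0.19 (SE 0.16) in empty vector cells, with overlapping groups, and 0.85 (SE 0.16) in Flag-OC2 cells, while Flag-OC2 over empty vector was -0.20 (SE 0.16) in normoxia and 0.83 (SE 0.16) in hypoxia. The interaction was 1.04 (SE 0.23). ARRDC3 in control cells was thus higher in hypoxia in PC3 but not in LNCaP.

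ARRDC1, the member that sorts cargo into budding vesicles, was at 4.65 and 6.15 RPKM in normoxic and 5.55 and 8.14 in hypoxic siCtrl PC3 cells. With siOC2 it was at 8.21 and 8.24 in normoxia and 3.28 and 5.02 in hypoxia. The siOC2 libraries were above the siCtrl libraries in normoxia and below them in hypoxia, so that siCtrl over siOC2 was -0.61 (SE 0.34) and 0.71 (SE 0.34). The hypoxic difference was 0.41 without the siRNA 1 library. The interaction was 1.32 (SE 0.48), and it stayed between 1.03 and 1.62 under the alternative settings. In siOC2 cells hypoxia over normoxia was -1.0 (SE 0.34), with both siRNAs in the same direction, and -0.70 without the siRNA 1 hypoxia library. The median of all genes in this contrast was -0.22, and -0.04 under upper-quartile scaling.

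ARRDC1 in LNCaP was at 55.8 and 48.1 RPKM in normoxic and 67.2 and 75.8 in hypoxic empty vector cells. With Flag-OC2 it was at 42.5 and 50.3 in normoxia and 45.2 and 59.5 in hypoxia. The hypoxic empty vector libraries were the highest of the 8, the reverse of the order for TXNIP and ARRDC4. Hypoxia over normoxia in empty vector cells was 0.46 (SE 0.16) and Flag-OC2 over empty vector in hypoxia was -0.46 (SE 0.16), while the groups overlapped in the remaining contrasts.

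ARRDC2, whose cargo is less well described, was at 3.92 and 4.59 RPKM in normoxic and 5.88 and 6.80 in hypoxic siCtrl PC3 cells. With siOC2 it was at 9.12 and 7.11 in normoxia and 10.1 and 9.38 in hypoxia. The 4 siOC2 libraries were above the 4 siCtrl libraries, with siCtrl over siOC2 at -0.91 (SE 0.28) in normoxia and -0.61 (SE 0.28) in hypoxia. Hypoxia over normoxia was 0.57 (SE 0.28) in siCtrl and 0.27 (SE 0.28) in siOC2 cells, the latter 0.45 under upper-quartile scaling. Without the siRNA 1 hypoxia library the hypoxic siCtrl over siOC2 difference was -0.56 and the hypoxia difference in siOC2 cells 0.22. The direction of both effects was the same as for ARRDC3 in these cells.

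In LNCaP cells ARRDC2 was at 3.13 and 3.84 RPKM in empty vector and 6.10 and 4.51 in Flag-OC2 in normoxia. In hypoxia it was at 5.16 and 4.91 in empty vector and 4.86 and 5.25 in Flag-OC2. The normoxic empty vector libraries were the lowest and the other 6 overlapped. Flag-OC2 over empty vector was 0.58 (SE 0.18) in normoxia and 0.00 (SE 0.18) in hypoxia, and hypoxia over normoxia in empty vector cells was 0.53 (SE 0.18).

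The composition of the family followed from these levels. In PC3, TXNIP made up 38.2% and 47.8% of the summed RPKM of the 5 genes in siCtrl normoxia and 25.0% and 18.2% in siOC2 normoxia. In hypoxia its share was 30.2% and 26.0% in siCtrl and 7.01% and 15.9% in siOC2. ARRDC3 held 34.5% and 24.5% of the sum in siCtrl normoxia and 73.1% and 65.2% in siOC2 hypoxia. In LNCaP, TXNIP was the largest share in every library, at 74.8% and 79.2% in normoxic and 64.0% and 59.6% in hypoxic empty vector cells. With Flag-OC2 it was 84.3% and 84.4% in normoxia and 83.7% and 79.3% in hypoxia. The TXNIP share was thus larger in siCtrl than in siOC2 cells and in Flag-OC2 than in empty vector cells at both oxygen levels, with no overlap between the groups compared.

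**Figure D3:**
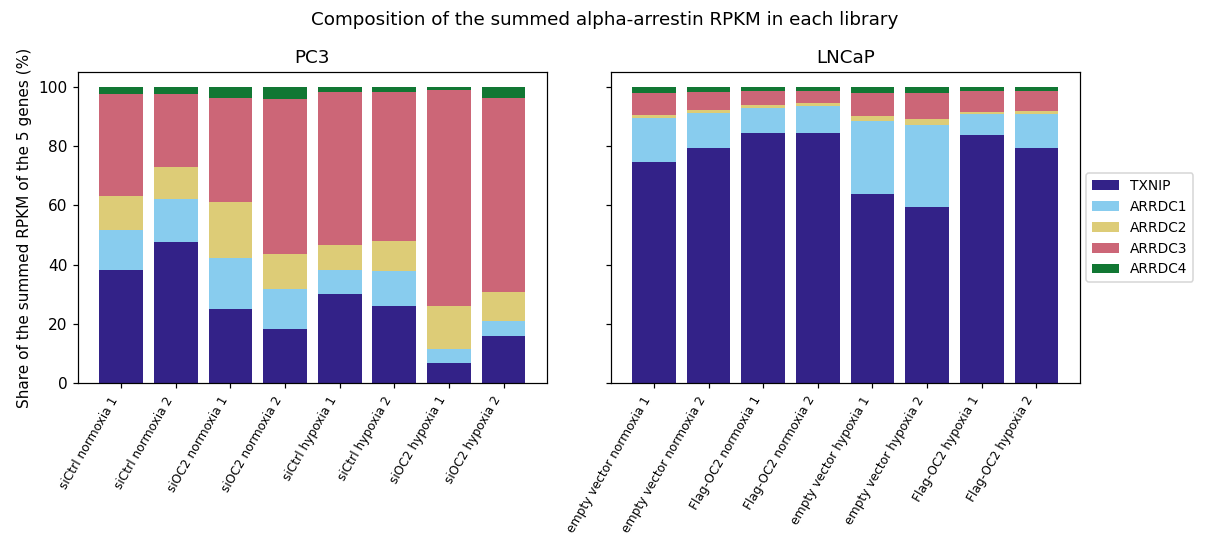
Share of the summed RPKM of the 5 alpha-arrestins taken by each gene, as 1 stacked bar per library that ends at 100%, PC3 on the left and LNCaP on the right. TXNIP takes 7.01% to 47.8% in PC3 and 59.6% to 84.4% in LNCaP, and ARRDC3 takes 73.1% and 65.2% in siOC2 hypoxia.

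Profiles over the 8 libraries of a line were compared by the root mean square distance of log2 values centred per gene, where 0 is the same profile. In LNCaP, ARRDC4 ranked 283 of 12282 genes by likeness to TXNIP (distance 0.39), and ARRDC3 ranked 1278. The ranks were not mutual, as TXNIP ranked 7948 by likeness to ARRDC4 and 8764 by likeness to ARRDC3. The distance of 0.39 was larger than the spread of ARRDC4 about its own mean (0.22). In PC3, ARRDC1 was the member most like TXNIP, at rank 3300 of 12213, and ARRDC4 ranked 8897. ARRDC2 ranked 285 by likeness to ARRDC3 in PC3 (distance 0.63), but ARRDC3 ranked 6148 by likeness to ARRDC2, whose own spread was 0.46. The genes nearest to TXNIP in PC3 were RBMS1, NEIL3, PLEKHH1, THOC6 and MMRN1 (distance 0.14 to 0.18). Among the genes nearest to ARRDC3 in PC3 were STC2, CERS1 and L1CAM (0.24 to 0.26), of which STC2, the gene of stanniocalcin 2, ranged from 12.6 to 69.9 RPKM. ARRDC4 in PC3 was nearest to ZNF350, ITPKB, EPCAM, OXTR and ZNF812, and ARRDC2 to GOLPH3, BRK1, GLCCI1, RLTPR and SURF4. In LNCaP, the genes nearest to ARRDC3 included ZNF711, TRAF3IP2, ZMAT1 and GPC4, while ARRDC4 was nearest to KLHL26, RSPH3, RNF114, HEBP1 and ACAD10, and ARRDC2 to LEMD2, RAI1, STK19, RAB11FIP5 and OAZ2.

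The 5 genes nearest to TXNIP in LNCaP were LIX1L, LMX1B, IL17RD, GLIPR2 and POLR3GL (distance 0.12 to 0.16). LIX1L and POLR3GL, which encodes a subunit of RNA polymerase III, lie beside TXNIP on chromosome 1. In GRCh37 TXNIP is on the plus strand, whereas its GRCh38.p14 window is on the minus strand. In GRCh37 LIX1L is at chr1:145477069-145501670 on the plus strand and POLR3GL at chr1:145456236-145470400 on the minus strand. The gaps to TXNIP are 34434 and 13601 bases, so neither overlaps it. LIX1L was at 2.06 and 2.25 RPKM in empty vector normoxia, 3.64 and 3.89 in Flag-OC2 normoxia, 1.48 and 1.39 in empty vector hypoxia and 3.87 and 3.22 in Flag-OC2 hypoxia. POLR3GL was at 20.7 and 22.3, 40.4 and 33.1, 14.6 and 12.8, and 37.3 and 27.2 RPKM in the same order of groups. Both genes were lowest in the hypoxic empty vector libraries and higher in all 4 Flag-OC2 libraries than in any empty vector library, as TXNIP was. They were picked from the genes nearest to TXNIP over these same libraries, so a shared order was built into the choice. The mean Flag-OC2 level in hypoxia was 2.81 times that of empty vector for TXNIP, 2.47 times for LIX1L and 2.35 times for POLR3GL.

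After this was seen, all genes of the table within 150 kb of each family member were ranked by likeness to it. In LNCaP, 9 such neighbours of TXNIP passed the filter, and LIX1L and POLR3GL were ranks 1 and 5 of 12282. ANKRD34A, which lies between them, ranked 6349, and the best of the other 6 was POLR3C at 1724. In PC3 the likeness was not seen, with LIX1L at rank 8733 and POLR3GL at rank 6375 of 12213. With a pseudocount of 1 the LNCaP ranks were 9 and 3, and by Pearson correlation of profiles 1 and 15. The best neighbour of ARRDC1 in LNCaP ranked 1575 and that of ARRDC2, PIK3R2, ranked 30, while no neighbour of ARRDC3 or ARRDC4 in the table passed the filter. How the reads of neighbouring genes were assigned was not tested.

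**Figure D4:**
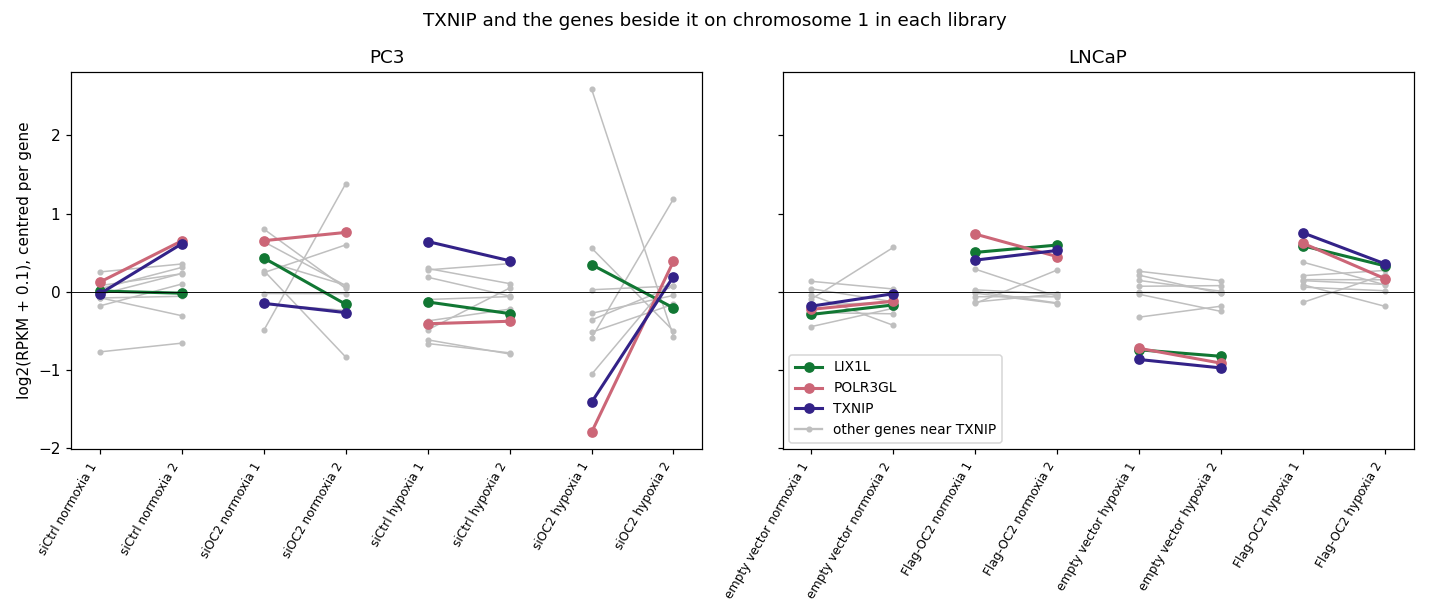
Log2(RPKM + 0.1) minus the mean of the gene over the 8 libraries of a line, for TXNIP, LIX1L, POLR3GL and, in grey, the other genes within 150 kb of TXNIP that passed the filter, with a line joining the 2 libraries of a group. In LNCaP, where LIX1L and POLR3GL were picked for likeness to TXNIP, the coloured genes lie together in each library, lowest in empty vector hypoxia. In PC3 they lie apart.

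Genes that work with the alpha-arrestins were taken as a list of 55 genes in 6 groups, of which 46 passed the filter in each line, and these were tested with limma. A call required a change of more than 2-fold and an unadjusted limma P under 0.05. SLC2A1 and HK2, which take up and phosphorylate glucose, were called with hypoxia in both arms of both lines, though in PC3 no call of a partner passed an adjusted p of 0.05. SLC2A1, the glucose transporter GLUT1 that TXNIP helps to remove from the surface, was at 16.8 ± 0.643 RPKM (SD, n = 2) in normoxic and 72.1 ± 1.68 in hypoxic siCtrl PC3 cells, a 4.28-fold rise (limma adjusted p = 0.0856). In empty vector LNCaP cells it was at 11.7 ± 3.45 and 55.9 ± 0.250, a 4.86-fold rise (limma adjusted p = 0.000233). HK2, the inducible hexokinase, rose by 1.20 in siCtrl PC3 cells (limma adjusted p = 0.304) and by 1.76 in empty vector LNCaP cells (limma adjusted p = 4.09e-05). SLC2A3, the transporter GLUT3, changed by 1.75 and 1.85 in the PC3 arms and by 1.65 and 1.53 in the LNCaP arms, from means at or below 1.83 RPKM in normoxia, and since it passed the filter mostly through hypoxic libraries no test is given. Its siOC2 change was 1.33 without the siRNA 1 hypoxia library. HK1, the constitutive hexokinase, was called in siCtrl PC3 cells at 1.19 (limma adjusted p = 0.622), a call that was lost when any 1 of the 4 libraries was left out (1.05 to 1.32 over all alternatives).

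Hypoxia called 5 of 46 partners higher and 0 lower in siCtrl PC3 cells, where 3.86% of all tested genes were called in either direction, and 4 higher and 0 lower in siOC2 cells (3.46% of all genes). In LNCaP it called 5 higher and 0 lower in empty vector cells (7.95% of all genes) and 4 higher and 1 lower in Flag-OC2 cells (6.84%). Of these calls, 1 in each PC3 arm (SLC2A3), 1 in empty vector cells (SLC2A3) and 3 in Flag-OC2 cells (SLC2A3, RGS16 and PKLR) were of genes that passed the filter only through the oxygen level where they were higher, so a difference was built into their selection. The ONECUT2 effect, siCtrl over siOC2 in PC3 and Flag-OC2 over empty vector in LNCaP, called 2 partners higher and 2 lower in normoxic PC3 cells (5.21% of all genes) and 1 higher and 3 lower in hypoxic PC3 cells (7.5%). In LNCaP it called 2 higher and 0 lower at either oxygen level (3.29% of all genes in normoxia and 4.47% in hypoxia), of which 1 in normoxia (PKLR) and both in hypoxia (PKLR and RGS16) had passed the filter only through Flag-OC2 libraries. The interaction, the ONECUT2 effect in hypoxia minus that in normoxia, called 1 partner higher and 1 lower in PC3 (0.942% of all genes) and in LNCaP (3.7%). The effects within a line share libraries, so they are not independent of each other.

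The median log2 change of the 46 partners with hypoxia was 0.10 in siCtrl PC3 (-0.07 over all genes), -0.04 in siOC2 PC3 (-0.22 over all genes), 0.14 in empty vector LNCaP (0.02) and 0.19 in Flag-OC2 LNCaP (0.09). The medians of the ONECUT2 effect were -0.12 and 0.01 in PC3 (-0.13 and 0.03 over all genes) and -0.04 and -0.05 in LNCaP (-0.08 and -0.01). At a limma adjusted p under 0.05 over all genes, with no limit on the fold, hypoxia passed 18 partners (39.1%) in empty vector and 12 (26.1%) in Flag-OC2 LNCaP cells, where it passed 32.3% and 26.9% of all genes, so the partners were close to the background. The ONECUT2 effect passed 3 partners (6.52%) in normoxic and 11 (23.9%) in hypoxic LNCaP cells, against 5.26% and 11.5% of all genes. These counts include SLC2A3 with hypoxia in both arms, RGS16 with hypoxia in Flag-OC2 cells, and PKLR (both oxygen levels) and RGS16 (hypoxia) with Flag-OC2. In the LNCaP interaction 0 partners and 0.244% of all genes passed, and 7 partners had an unadjusted P under 0.05. In PC3, 0 partners passed in any contrast, where few genes passed at all, at 0.00819% and 0.0901% of all genes for the ONECUT2 effect in normoxia and hypoxia, 0.27% and 0.00819% for hypoxia in siCtrl and siOC2 cells, and 0% for the interaction. The PC3 numbers of partners at an unadjusted P under 0.05 were 6, 7, 8, 5 and 2 in that order.

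Of the listed targets of ChREBP and MondoA, 8 passed the filter in LNCaP. With Flag-OC2 in hypoxia FASN and SCD were lower at a limma adjusted p under 0.05, and RGS16 and PKLR were higher but had passed the filter only through Flag-OC2 libraries, so their differences are given without a test. RGS16, a regulator of G protein signalling, was at 0.467 ± 0.0434 RPKM (SD, n = 2) in empty vector and 3.58 ± 0.717 in Flag-OC2 cells, a log2 difference of 2.68. PKLR, the liver pyruvate kinase gene and a classical ChREBP target, differed by 2.36, with means of only 0.0303 and 0.575 RPKM. FASN, fatty acid synthase, fell by 0.98 (limma adjusted p = 0.0135) and SCD, stearoyl-CoA desaturase, fell by 0.67 (limma adjusted p = 0.00579).

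Among the sensing factors themselves, MLXIPL, which encodes ChREBP, was higher with Flag-OC2 in hypoxia by 0.66 (limma adjusted p = 0.0296) and MLX, the shared partner, was lower by 0.53 (limma adjusted p = 0.0223). With hypoxia in empty vector cells, where TXNIP and ARRDC4 were lower, MLXIP, which encodes MondoA, rose by 0.63 (limma adjusted p = 0.0117) and MLX rose by 0.49 (limma adjusted p = 0.0125). HK1 rose by 1.48 in the same contrast (limma adjusted p = 0.000979), and its ONECUT2 effect differed between the oxygen levels by -1.05 (limma adjusted p = 0.127). In normoxia the PKLR difference with Flag-OC2 was 3.45, from means of 0.0272 and 1.30 RPKM. With hypoxia in Flag-OC2 cells KLF10 rose by 0.48 (limma adjusted p = 0.0126), while the differences of RGS16 and PKLR, again given without a test, were 1.67 and -1.05. ELOVL6, a fatty acid elongase, fell by 0.66 in empty vector and by 0.80 in Flag-OC2 cells in hypoxia (limma adjusted p = 0.00728 and 0.00412), while SCD rose by 0.77 and 0.38 (limma adjusted p = 0.00106 and 0.0234). FASN rose by 0.54 in hypoxic empty vector cells (limma adjusted p = 0.0493).

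All 9 listed genes of the thioredoxin system, the other partner of TXNIP, passed the filter in LNCaP. In the LNCaP contrasts 0 of them were called, against 3.29% to 7.95% of all genes. At a limma adjusted p under 0.05, hypoxia passed 2 (22.2%) in empty vector cells and 1 (11.1%) in Flag-OC2 cells. Over all genes it passed 32.3% and 26.9%, so the group was below the background. The median of the 9 genes with hypoxia in empty vector cells was -0.23 against 0.02 over all genes. TXN, thioredoxin itself, fell by 0.32 in hypoxic empty vector LNCaP cells (limma adjusted p = 0.0236), as did PRDX1, a peroxiredoxin, by 0.42 (limma adjusted p = 0.0263). TXN2, the mitochondrial thioredoxin, fell by 0.60 with hypoxia in Flag-OC2 cells (limma adjusted p = 0.00266). In PC3, TXNRD2, the mitochondrial thioredoxin reductase, was called in 4 of 5 contrasts, but its values were erratic. It was at 1251 ± 577 RPKM (SD, n = 2) in siCtrl and 624 ± 319 in siOC2 normoxia, with overlapping libraries, and at 680.3 ± 174 and 1745 ± 104 in hypoxia. The interaction was -2.41 (limma adjusted p = 1.00). Its group means in LNCaP were 418 to 487 RPKM, and whether reads of overlapping transcripts were counted for TXNRD2 was not tested.

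Among the cargo of ARRDC3, ITGB4, integrin beta 4, was higher with Flag-OC2 in LNCaP by 1.38 in normoxia (limma adjusted p = 0.00995) and by 0.96 in hypoxia (limma adjusted p = 0.0237). In PC3, ITGB4 was at 19.7 ± 4.50 RPKM (SD, n = 2) in normoxic and 144 ± 2.16 in hypoxic siCtrl cells, and at 26.3 ± 20.7 in hypoxic siOC2 cells. These gave a hypoxia change of 2.88 (limma adjusted p = 0.0884) and a siCtrl over siOC2 difference in hypoxia of 2.72 (limma adjusted p = 0.0933). The latter was 1.81 without the siRNA 1 library. The ITGB4 interaction in PC3 was 1.87 (limma adjusted p = 1.00), a call lost when any 1 library but siCtrl normoxia 2 or siRNA 2 hypoxia was left out (0.96 to 2.77 over all alternatives). Of the PC3 groups, ITGB4 was thus highest in siCtrl hypoxia and ARRDC3 in siOC2 hypoxia. Both were higher with hypoxia in siCtrl cells (2.88 for ITGB4 and 1.63 for ARRDC3). Their siCtrl over siOC2 differences in hypoxia had opposite signs (2.72 and -0.71). A relation between these genes was not tested. With hypoxia in empty vector LNCaP cells ITGB4 rose by 0.80 (limma adjusted p = 0.0207). NOTCH1 rose by 0.51 with Flag-OC2 in hypoxia (limma adjusted p = 0.0459), and HGS, an endosomal sorting factor, rose with hypoxia by 0.46 and 0.40 in the empty vector and Flag-OC2 cells (limma adjusted p = 0.0133 and 0.0263).

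Of the NEDD4-family ligases, the partners of the PPxY motifs, NEDD4L was at 151 ± 28.9 RPKM (SD, n = 2) in normoxic and 323 ± 12.0 in hypoxic empty vector LNCaP cells, a rise of 1.11 (limma adjusted p = 0.000826). It rose by 0.56 with hypoxia in Flag-OC2 cells (limma adjusted p = 0.0183) and was lower with Flag-OC2 in hypoxia by 0.57 (limma adjusted p = 0.0331). SMURF2 rose with hypoxia in both LNCaP arms, by 0.53 and 0.61 (limma adjusted p = 0.0144 and 0.0105), and ITCH rose by 0.44 in empty vector cells (limma adjusted p = 0.0242). In PC3, SMURF2 was higher in siOC2 than in siCtrl cells, with log2 differences of -1.22 in normoxia and -1.26 in hypoxia (limma adjusted p = 0.340 and 0.228), the latter -0.89 without the siRNA 1 library. SLC2A3 moved the same way, by -1.71 and -1.80 (limma adjusted p = 0.478 and 0.317), the latter -1.28 without the siRNA 1 library, and SLC2A1 was higher in siCtrl in normoxia by 1.15 (limma adjusted p = 0.384). Each of these PC3 calls was lost when 1 of the compared libraries was left out.

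Within the wider arrestin superfamily 5 of 8 listed genes passed the filter. None was called in any contrast, where 0.942% to 7.95% of all genes were called. At a limma adjusted p under 0.05, hypoxia passed 2 (40%) in empty vector and 1 (20%) in Flag-OC2 LNCaP cells. Over all genes it passed 32.3% and 26.9%. Flag-OC2 in hypoxia passed 1 (20%), against 11.5% of all genes. With 5 genes these counts say little. ARRB1, beta-arrestin 1, rose by 0.50 with hypoxia in empty vector LNCaP cells (limma adjusted p = 0.0318) and was lower by 0.69 with Flag-OC2 in hypoxia (limma adjusted p = 0.0223), the directions of ARRDC1 in the same contrasts. VPS26B, a retromer subunit with an arrestin fold, rose by 0.41 with hypoxia in empty vector cells (limma adjusted p = 0.0163), and DSCR3, a VPS26 relative, rose by 0.45 with hypoxia in Flag-OC2 cells (limma adjusted p = 0.0248).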

How the data were processed

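The 16 RNA-Seq libraries were used, 8 per cell line, and 12 samples of ChIP-Seq were left out as not analysed here. The authors prepared stranded mRNA libraries, used STAR 2.4.2a to align reads to hg19, and deposited RPKM values from Cufflinks 2.1.1 based on GENCODE genes (GRCh37). Whether counting used strand is not given in the sources used here. RPKM already divides by length and depth, and counts were not used, so low values carry an unknown counting error. Both tables hold 19662 symbols, and 0 columns lacked a sample.

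Groups came from the labels. Genes reaching 1 RPKM in 2 or more libraries of a line were kept (12214 for PC3 and 12283 for LNCaP). Their log2(RPKM + 0.1) was fitted to 4 group means with limma 3.58.1 (trend, R 4.3.3), and the code was tested on simulated data. P are 2-sided and adjusted by Benjamini-Hochberg over all genes tested. Named partners were, per contrast, up to 6 called genes of largest change and all with an adjusted p under 0.05, and for likeness the 5 nearest genes per line for TXNIP, ARRDC2, ARRDC3 and ARRDC4. Some genes that these rules name are not reported here. The genes, lists and tests were chosen with earlier results of these data known. Replicate numbers pair the siOC2 libraries, where a number is 1 siRNA (correlation of deviations between oxygen levels 0.618), and elsewhere ranged from -0.186 to 0.275. Alternatives were another pseudocount, filter, scaling, replicate block, adjusted calls, fits to only the groups compared, and leaving out each library. Promoters are RefSeq windows (GRCh38.p14), and Python 3.11.15 with pandas 2.3.3 made the other tables.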

Additional observations from a re-analysis of the deposited data

Results flagged for a closer look

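Between the cell lines, every control library moved one way with hypoxia in PC3 and the opposite way in LNCaP for 4 of the genes named here, and each difference was not tested. Such opposite moves were found for 1 of 5 alpha-arrestins, 8 of 43 partners and 11.9% of the 10948 genes tested in both lines, so they say little of any single gene. For ARRDC4 the log2 hypoxia change was 0.37 in PC3 and -0.41 in LNCaP, a difference of 0.778. For TXN the changes were 0.28 and -0.32, a difference of 0.601. For FASN they were -0.41 and 0.54, a difference of -0.951, and for NOTCH1 -0.47 and 0.13, a difference of -0.599.

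Between oxygen levels, the ONECUT2 effect had no overlap between groups and opposite signs in hypoxia and normoxia for another 4 genes. In PC3 this was so for 1 of 5 alpha-arrestins, 0 of 46 partners and 1.38% of all 12214 genes, and in LNCaP for 1 of 5, 2 of 46 and 8.59% of 12283 genes. ARRDC1 in PC3 differed by 0.71 in hypoxia and -0.61 in normoxia, apart by 1.324, and ARRDC3 in LNCaP by 0.83 and -0.20, apart by 1.037, and as both genes were chosen on these contrasts no test of the difference is given. HK1 in LNCaP differed by -0.49 in hypoxia and 0.56 in normoxia, apart by -1.049 (limma adjusted p = 0.127). VPS26B in LNCaP differed by -0.10 and 0.10, apart by -0.203 (limma adjusted p = 0.501).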

How the results depend on the processing

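The counts of partners called depended on the limits. Calls at an adjusted p under 0.05 numbered 0 in every PC3 contrast and 0 in the LNCaP interaction. The ONECUT2 effect in normoxia gave 4 partners in PC3 and 2 in a fit to only the groups compared, and 2 in LNCaP and 1 with a filter of 5 RPKM. The ONECUT2 effect in hypoxia in LNCaP gave 2, against 1 with a pseudocount of 1, 0 with a filter of 5 RPKM and 1 in a fit to only the groups compared. Hypoxia in Flag-OC2 cells gave 5, against 3 with a pseudocount of 1 and 2 with a filter of 5 RPKM, which removes PKLR, RGS16 and SLC2A3. The interaction gave 2 in each line, against 1 in PC3 and 4 in LNCaP without a filter and 1 in LNCaP with a filter of 5 RPKM.

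Without 1 library the PC3 counts ran from 2 to 4 (ONECUT2, normoxia), 2 to 8 (ONECUT2, hypoxia), 3 to 4 (hypoxia, siCtrl), 3 to 10 (hypoxia, siOC2) and 1 to 4 (interaction). The LNCaP counts ran from 1 to 3, 2 to 4, 5 to 6, 4 to 5 and 1 to 2 in the same order. The counts of 8, 10 and 4 in PC3 came without the siRNA 2 hypoxia library, and the cause was not tested. Single libraries also decided ONECUT2 calls of partners in PC3, given here with their range over all alternatives. In normoxia, SLC2A1 was lost without siCtrl 2 or siRNA 2 (0.68 to 1.63), SMURF2 without siCtrl 1 or siRNA 1 (-1.63 to -0.80), TXNRD2 without siCtrl 1 or siRNA 2 (0.48 to 1.57) and SLC2A3 without siCtrl 2 or siRNA 1 (-2.53 to -0.88). In hypoxia, TXNRD2 was lost without siCtrl 1 (-1.64 to -1.12), SMURF2 without siCtrl 2 or siRNA 1 (-1.62 to -0.89) and SLC2A3 without siCtrl 1, siCtrl 2 or siRNA 1 (-2.32 to -1.28).

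Of 550 alternative values of the 50 member contrasts, 493 moved by less than the spread between replicates and 534 kept their sign. The filter, the replicate block and the fit to only the groups compared cannot change a difference of group means. These counts therefore do not measure stability. Without the siRNA 1 hypoxia library the PC3 interaction of TXNIP changed from 0.63 to -0.18 and that of ARRDC4 from 0.74 to -0.39, and hypoxia in siOC2 cells gave 0.76 for ARRDC4 in place of -0.38. Over all alternatives the ARRDC3 hypoxia difference in siOC2 cells ran from 0.84 without siRNA 1 in normoxia to 1.75 without siRNA 2. The siOC2 hypoxia values without a library set both siRNAs against a single siRNA, so they also hold the difference between the siRNAs. The LNCaP interaction of ARRDC3 ran from 0.83 to 1.24.

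A paired fit with the replicate block gave 4, 4, 5, 5 and 2 partner calls in PC3 and 2, 2, 5, 5 and 2 in LNCaP, in the order ONECUT2 in normoxia and hypoxia, hypoxia in control and altered cells, and interaction, and ended no call. The PC3 block with crossed siCtrl numbers gave 4, 4, 5, 4 and 2. Upper-quartile scaling moved the median of all genes by over 0.1 in 4 contrasts, from -0.13 to -0.0049, -0.22 to -0.04 and 0.17 to 0.0018 in PC3 and from 0.09 to -0.05 for hypoxia in Flag-OC2 cells. Of the genes nearest to TXNIP, 3 and 2 of 5 stayed with a pseudocount of 1 in PC3 and LNCaP. With 2 libraries per group and RPKM in place of counts, small differences and genes near 1 RPKM could not be resolved.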
